A study of Mus musculus with 16 samples.

Results

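The proteasome is the barrel-shaped protease that degrades ubiquitin-tagged proteins. Its 20S core has alpha-ring subunits that gate the barrel and beta-ring subunits that carry the proteolytic sites, and its 19S cap has ATPases that unfold substrates and non-ATPase subunits that recognise and remove ubiquitin. In mammals the genes of the standard particle are expressed in nearly every cell, and their levels are adjusted together by NRF1 (Nfe2l1). Interferon-gamma induces alternative beta subunits and the activator pair Psme1 and Psme2. The genes examined were the RefSeq protein-coding genes of mouse build mm10 whose symbols start with Psma, Psmb, Psmc, Psmd, Psme, Psmf or Psmg followed by a digit. There were 51 of 21887 protein-coding genes, on 16 chromosomes. Of these, 49 encode subunits, activators, inhibitors or assembly chaperones of the proteasome, as their names say. The other 2 are Psmc3ip, a factor of meiotic recombination, and Psme3ip1, a protein that binds the activator Psme3.

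Chromatin immunoprecipitation with sequencing had been done in mouse embryonic stem cells (mESCs) of strain C57BL/6, in Mettl14 conditional knockout cells (KO, written CKO in the labels) and in Mettl14 control cells. METTL14 and METTL3 together form the enzyme that writes N6-methyladenosine on RNA. Cells of both groups grew in serum medium with LIF, CHIR99021 (a GSK3 inhibitor) and PD0325901 (a MEK inhibitor). Neither the Cre driver nor the number of clones is stated in the labels. Each of 3 histone marks had 2 KO and 2 control peak lists. H3K4me3 is found at active or poised promoters, H3K27ac at active promoters and at enhancers, and H3K27me3 in chromatin repressed by Polycomb. For the H3K27ac libraries the labels name the antibody against H3K4me3, so what was precipitated in them rests on the sample title.

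The lists give peak positions and widths and no heights or read numbers, so the depth behind them is unknown. The H3K4me3 lists held 8131 and 8055 peaks in KO cells, against 2859 and 2431 in control cells. The H3K27ac lists held 15271 and 15058 peaks in KO cells, against 15541 and 13520 in control cells. The H3K27me3 lists held 11349 and 11446 peaks in KO cells, against 6312 and 7203 in control cells. KO and control therefore differ in list length as well as in genotype for H3K4me3 and H3K27me3, and the share of all genes under the same rule is given beside the counts over the 51 genes. Counts within role groups or short gene lists have no share of their own and are to be read against those shares. Cell identity was read from markers. Of 10 naive stem cell genes, 9 had H3K4me3 in both KO lists and 3 in both control lists, and 7 had H3K27ac in all 4 lists. The gene without H3K4me3 in both KO lists was Esrrb, with no H3K4me3 at the ends of its span in any list. It had H3K27me3 there of 767 and 501 bp in KO cells and none in control cells. For these marker genes, peaks farther inside the span were not counted. Of 7 fibroblast and 5 primitive endoderm genes, none had either mark in both KO lists, and of 5 trophectoderm genes 1, Tfap2c, had H3K27ac there. The Mettl14 gene had H3K4me3 peaks 1074 and 1295 bp wide at its ends in KO cells and none in control cells, which does not check its deletion, since the labels do not state which part is deleted.

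A gene was called in a list when at least 1 bp of a peak lay within 1000 bp either side of either end of its span, and its width there is that of the widest such peak. A gene called in both KO lists and neither control list is named KO-only, the opposite case control-only. Since each peak in bulk chromatin pools many cells, a mark on fewer cells and less of a mark per cell cannot be told apart. The labels do not say that replicates came from separate cultures, so the spread between them may be technical.

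Promoters of 7 genes are shown first, because their calls mark the range found. RefSeq (GRCm38.p6, the assembly of mm10) gives the 250 bases before each start, written on the gene's own strand from 5′ to 3′. Capitals mark letters of 3 known promoter motifs on either strand: the antioxidant response element core TGACNNNGC, which NRF1 and NRF2 bind, the CCAAT box, and the ETS core CGGAAG. The first 4 sequences precede genes with H3K4me3 in both KO lists, namely Psma7 of the alpha ring, the deubiquitinase gene Psmd14, the ATPase gene Psmc1 and the catalytic beta gene Psmb5. The other 3 precede the thymic beta gene Psmb11 and the interferon-inducible beta genes Psmb8 and Psmb9, the genes with H3K27me3. These 7 were chosen after their values were seen.
Psma7 (chr2:180042465-180042714, minus strand): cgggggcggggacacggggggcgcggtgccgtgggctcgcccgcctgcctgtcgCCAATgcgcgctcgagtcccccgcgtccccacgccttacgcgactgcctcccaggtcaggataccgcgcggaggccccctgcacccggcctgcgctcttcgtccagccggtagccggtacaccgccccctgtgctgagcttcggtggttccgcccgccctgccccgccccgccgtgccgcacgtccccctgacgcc
Psmd14 (chr2:61711444-61711693, plus strand): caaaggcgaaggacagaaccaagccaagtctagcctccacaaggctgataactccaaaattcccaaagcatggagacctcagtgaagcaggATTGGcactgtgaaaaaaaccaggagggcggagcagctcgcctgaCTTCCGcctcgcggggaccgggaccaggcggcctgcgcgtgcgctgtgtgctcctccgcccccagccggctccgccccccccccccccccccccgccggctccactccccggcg
Psmc1 (chr12:100109952-100110201, plus strand): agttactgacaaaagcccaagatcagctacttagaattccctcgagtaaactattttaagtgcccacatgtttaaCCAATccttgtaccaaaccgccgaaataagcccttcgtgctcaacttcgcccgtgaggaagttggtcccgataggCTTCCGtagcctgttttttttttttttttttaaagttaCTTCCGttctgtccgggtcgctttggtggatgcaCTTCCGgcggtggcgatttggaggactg
Psmb5 (chr14:54617996-54618245, minus strand): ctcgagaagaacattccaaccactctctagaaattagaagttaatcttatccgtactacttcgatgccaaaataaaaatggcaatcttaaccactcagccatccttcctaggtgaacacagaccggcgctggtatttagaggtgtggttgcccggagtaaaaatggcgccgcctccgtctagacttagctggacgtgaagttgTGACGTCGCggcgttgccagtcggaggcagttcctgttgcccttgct
Psmb11 (chr14:54625060-54625309, plus strand): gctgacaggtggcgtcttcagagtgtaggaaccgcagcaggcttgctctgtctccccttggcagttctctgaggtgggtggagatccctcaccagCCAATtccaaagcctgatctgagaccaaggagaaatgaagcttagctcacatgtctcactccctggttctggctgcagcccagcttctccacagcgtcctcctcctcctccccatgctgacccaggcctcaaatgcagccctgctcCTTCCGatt
Psmb8 (chr17:34197945-34198194, plus strand): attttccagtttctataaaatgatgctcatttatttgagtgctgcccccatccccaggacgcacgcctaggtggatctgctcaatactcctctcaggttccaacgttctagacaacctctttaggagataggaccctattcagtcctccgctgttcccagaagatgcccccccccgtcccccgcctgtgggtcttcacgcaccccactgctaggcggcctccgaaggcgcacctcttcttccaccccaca
Psmb9 (chr17:34187331-34187580, minus strand): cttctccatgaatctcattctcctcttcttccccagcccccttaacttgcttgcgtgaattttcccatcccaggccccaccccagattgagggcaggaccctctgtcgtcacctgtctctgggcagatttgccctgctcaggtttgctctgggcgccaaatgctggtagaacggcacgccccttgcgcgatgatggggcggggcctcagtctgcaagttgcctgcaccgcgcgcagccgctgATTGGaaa

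The Psma7 bases hold 35 CpG dinucleotides and 1 CCAAT box. Those of Psmc1 hold 14 CpG, a CCAAT box and several ETS cores, and those of Psmb5 hold 15 CpG and an antioxidant response element core. Those of Psmb11 hold 4 CpG, at 0.20 of the number that its C and G content would give if its bases were placed at random. Those of Psmb8 hold 10 CpG and 0 of the motif letters.

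H3K4me3 was called at most proteasome genes in KO cells and at few in control cells. In KO lists 1 and 2 it was called at 35 and 35 of the 51 genes, against 11 and 7 in control lists 1 and 2. The means were 35 ± 0 genes in KO cells and 9 ± 2.83 genes in control cells (SD, n = 2 each). As shares these were 68.6% and 68.6% in KO cells, against 21.6% and 13.7% in control cells. Over all protein-coding genes the shares were 30.8% and 30.9% in KO cells, against 8.01% and 8.08% in control cells. The 2 KO values thus lie above the 2 control values for the proteasome genes as they do for genes in general.

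**Figure D1:**
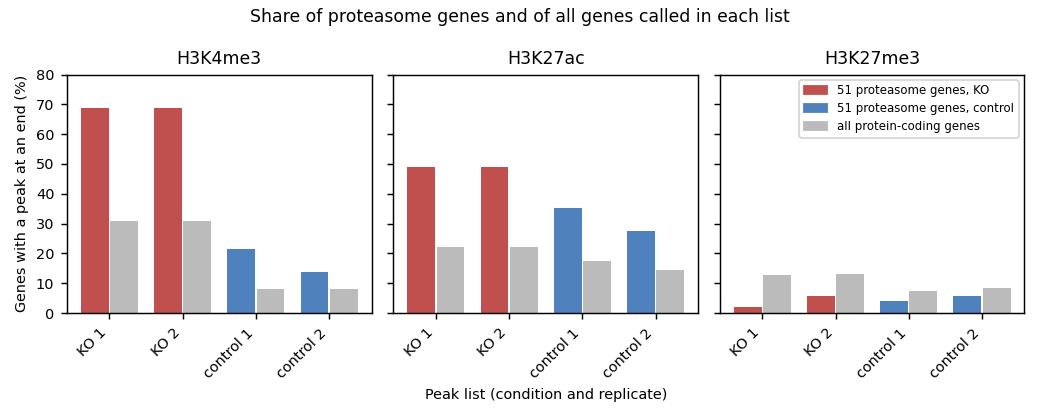
Share of genes with a peak at an end (y axis, percent) in each of the 4 lists of each mark (x axis), KO lists first. Red bars are the 51 proteasome genes in KO lists, blue bars the same genes in control lists, and grey bars all 21887 protein-coding genes in the same list. For H3K4me3 the red bars stand at 68.6% beside grey bars near 30.8%, and for H3K27me3 the proteasome genes lie below the grey bars in every list.

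Across the 4 H3K4me3 lists, 38 of the 51 genes (74.5%) were called at least once, against 38.6% of all genes. In both KO lists 32 were called (62.7%), against 24.0% of all genes, and in both control lists 3 (5.88%), against 3.07%. KO-only genes numbered 18 (35.3%), against 13.5% of all genes, and no proteasome gene was control-only, a class that holds 0.0274% of all genes. All 4 lists called 3 genes (5.88%), against 2.90% of all genes. Within the genes called in both KO lists, however, the KO-only share was 56.2% for the proteasome genes (18 of 32) and 56.4% for all genes, so the difference between KO and control lists was at the level of other genes with the mark. When all H3K4me3 lists were cut to the length of the shortest by width, 5 KO-only genes were left (9.80%), against 2.98% of all genes. Without control list 1 the genes called in all remaining lists numbered 7, against 6.71% of all genes, and without control list 2 they numbered 10, against 6.62%.

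**Figure D2:**
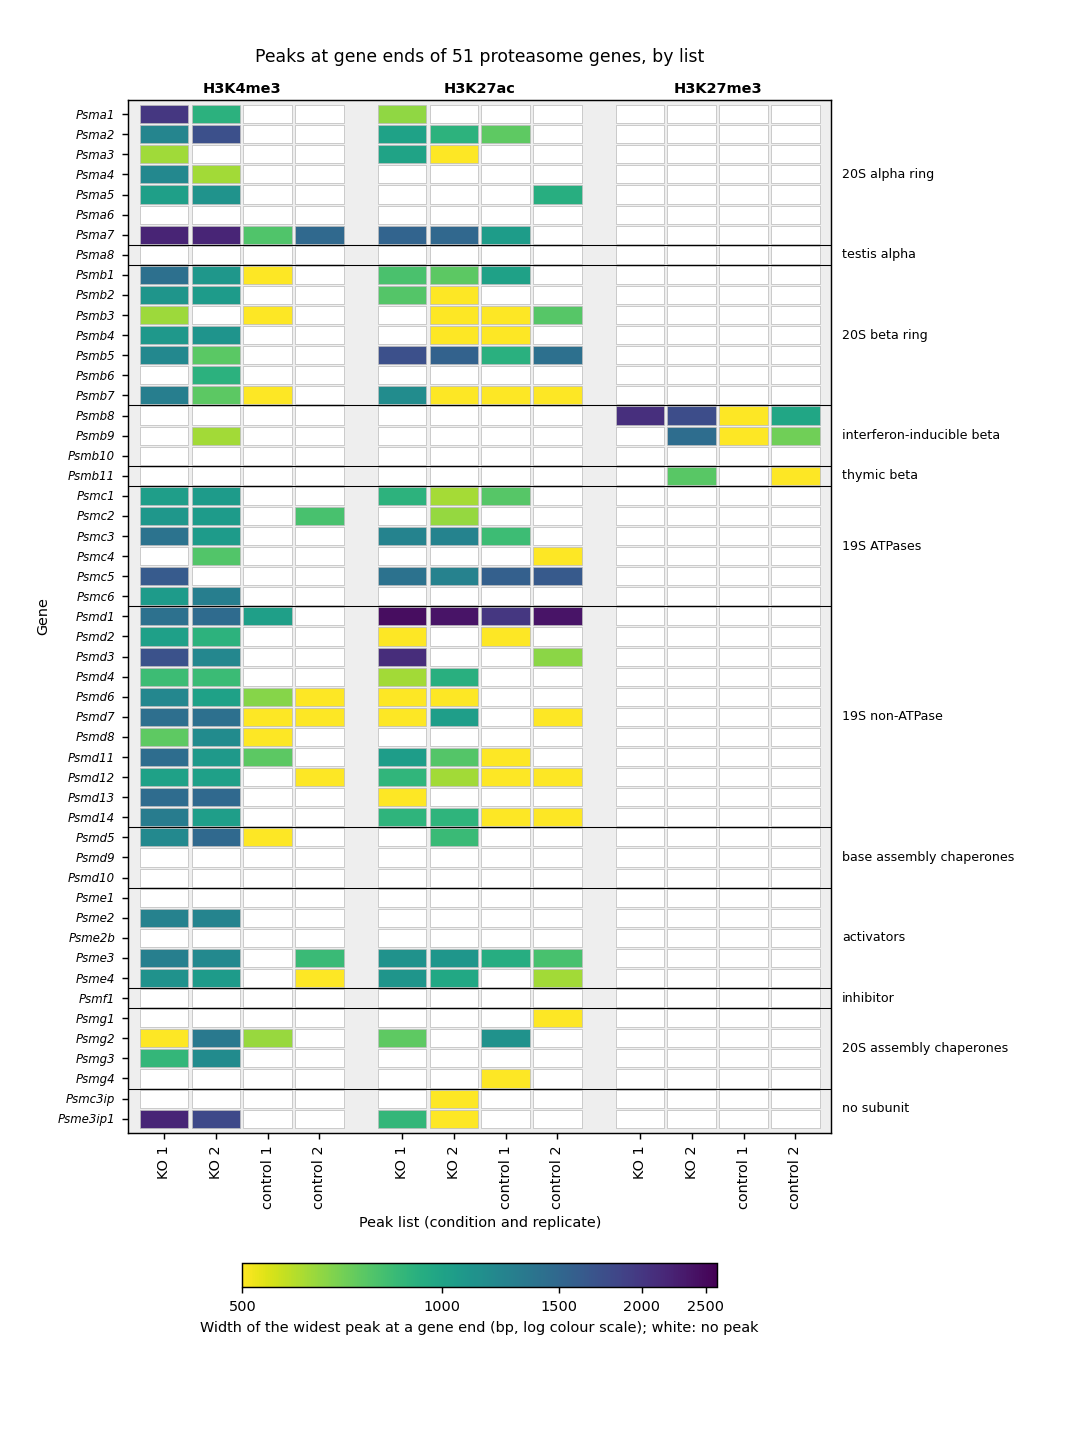
Width of the widest peak at a gene end (colour, bp, log scale, white for no peak) for each of the 51 genes (rows, grouped by role) in each of the 12 lists (columns, by mark, KO before control). The KO columns of H3K4me3 are filled for 11 of 11 non-ATPase genes of the 19S cap, and the H3K27me3 columns are filled at Psmb8, Psmb9 and Psmb11 alone.

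The 7 alpha-ring genes, Psma1 to Psma7, form the outer rings through which substrates enter. Of them 5 had H3K4me3 in both KO lists and 1 in both control lists. Psma7 (chr2:180036367-180042464, minus strand), whose promoter is printed above, had peaks of 2205 and 2190 bp in KO cells, against 785 and 1489 bp in control cells. Its KO widths lay above its control widths. Psma1, Psma2, Psma4 and Psma5 were KO-only. Psma2 had peaks of 1229 and 1737 bp in KO cells and none in control cells. Psma8, the testis counterpart of Psma7, was called for none of the marks in any list.

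At 2 alpha-ring genes an annotated start lies inside the span, out of reach of the windows at its ends. Psma6 has RefSeq starts at both 55384222 and 55398825 on chromosome 12, and H3K4me3 at the inner one was 1979 and 1650 bp wide in KO cells, with none in control cells. These peaks lay 13682 and 13800 bp inside the nearest span end. Psma3 had peaks at its annotated start of 1692 and 1189 bp in KO cells, against 1109 bp in control list 1 and none in control list 2. With annotated starts added to the span ends, all 7 alpha-ring genes had H3K4me3 in both KO lists. Psmf1, which encodes the proteasome inhibitor PI31, was in the same case, with 1169 and 906 bp at its annotated start in KO cells and none in control cells. With span ends and annotated starts together, a setting chosen after seeing the data, 35 of the 51 genes (68.6%) had H3K4me3 in both KO lists, against 26.0% of all genes.

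The 7 constitutive beta-ring genes include the catalytic Psmb5 (chymotrypsin-like), Psmb6 (caspase-like) and Psmb7 (trypsin-like). H3K4me3 was called in both KO lists at 5 of them and in both control lists at 0, and each of the 7 was called in at least 1 list. Psmb5 (chr14:54614120-54617995, minus strand) had peaks of 1201 and 761 bp in KO cells and none in control cells. Psmb2 and Psmb4, which line the ring without catalytic sites, were KO-only as well, at 1103 and 1062 bp for Psmb2 in KO cells and at 1081 and 1108 bp for Psmb4 in KO cells. Psmb7 had 1294 and 756 bp in KO cells, against 501 bp in control list 1 and no peak in control list 2. The width of 501 bp is the smallest in every list. Psmb6 had 906 bp in KO list 2 and no peak in the other lists.

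The 6 ATPase genes, Psmc1 to Psmc6, encode the motor ring of the 19S cap. In both KO lists 4 had H3K4me3, and 3 of these, Psmc1, Psmc3 and Psmc6, were KO-only. Psmc6 had 1060 and 1292 bp in KO cells and no peak in control cells. Psmc5 differed between its KO lists, with 1630 bp in KO list 1 and none in KO list 2, nor in control cells.

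All 11 non-ATPase genes of the 19S cap had H3K4me3 in both KO lists, while control lists 1 and 2 called 5 and 3 of them. Psmd7, the partner of the deubiquitinase Psmd14, spans chr8:107580380-107588482 and had 1430 and 1423 bp in KO cells, against 501 and 501 bp in control cells. Psmd6, a structural subunit of the cap's lid, had 1209 and 1012 bp in KO cells, against 675 and 501 bp in control cells. Neither gene's KO and control widths overlapped. KO-only were Psmd14, Psmd4 (a ubiquitin receptor), Psmd2 (a large scaffold subunit of the base), Psmd3 and Psmd13. Psmd13 had 1458 and 1494 bp in KO cells and no peak in control cells. Psmd3 had 1715 and 1212 bp in KO cells and no peak in control cells. Psmd11, whose human counterpart is known to promote proteasome assembly in embryonic stem cells, had 1447 and 1070 bp in KO cells, against 758 bp in control list 1 and no peak in control list 2.

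The genes around the core particle were called less evenly. Of the 5 activator genes, Psme2, Psme3 and Psme4 had H3K4me3 in both KO lists. Psme2 was KO-only at 1253 and 1238 bp in KO cells. These peaks ended 171 and 211 bp upstream of its annotated start and so did not reach it. They covered the place, 612 bp from that start, where the span of Rnf31 begins, a gene of a linear-ubiquitin ligase. Psme1, the partner gene of Psme2 on the same chromosome, had no H3K4me3 peak at its ends, nor did Psme2b, a gene named as a copy of Psme2. Among the 3 chaperones of the 19S base, Psmd5 had the mark in both KO lists, at 1198 and 1487 bp, against 501 bp in control list 1 and none in control list 2, and Psmd9 and Psmd10 had none. Among the 4 chaperones of the 20S core, Psmg2 and Psmg3 had it in both KO lists and Psmg1 and Psmg4 had none. Psme3ip1, which is no subunit, had KO-only peaks of 2189 and 1804 bp.

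Of the 3 immune and 1 thymic beta genes, 1 had an H3K4me3 call, in 1 list. Over all genes 24.0% were called in both KO lists, a share from which so few genes cannot be told apart. None of Psmb8, Psmb9 and Psmb10, which replace the catalytic beta subunits in the immunoproteasome, nor Psmb11, which is known from cortical thymic epithelium, had H3K4me3 in both lists of either condition. Psmb9 had a peak of 630 bp in KO list 2 and none in the other lists, and that peak lay inside Tap1, the neighbouring peptide transporter gene. At Psmb10, the nearest H3K4me3 peak lay 27174 and 27030 bp away in KO cells, against 34764 and 8652 bp in control cells.

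Among the 18 KO-only genes the KO widths had medians of 1201 and 1085 bp, with a range of 837 to 2189 bp in KO list 1 and of 627 to 1804 bp in KO list 2. The medians over all 2959 KO-only genes were 1004 and 938 bp. For the 3 genes called in all 4 lists, the median log2 ratio of KO over control width was 0.95, against 1.07 over 634 genes. In each of these 3 both KO widths exceeded both control widths, as in 93.1% of all genes called in all 4 lists. An exact two-sided permutation test over 2 against 2 lists cannot give a p below 0.333, which is the value each of the 3 had. Of the 38 called genes, 12 share a calling peak with another gene, among them Psma2 with Mrpl32, Psma7 with Ss18l1, Psmd13 with Sirt3 and Psme2 with Rnf31, so at these the peak cannot be assigned to the proteasome gene alone.

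Strand and start were annotated for 43 of the 51 genes and not for Psmb1, Psmb2, Psmb7, Psmc3, Psmd3, Psmd7, Psma8 and Psmg2. In those with a strand, all 69 H3K4me3 calls over genes and lists lay at the end of the span where transcription begins, against 92.4% of such calls over all genes. At Psma3 the call at that span end lay several kilobases upstream of the annotated start. At annotated starts, the 61 KO peaks had their centres at a median of 326.5 bp downstream, against 325.75 bp for the 14 control peaks. The medians over all genes were 313 bp in KO lists and 395 bp in control lists. The KO peaks covered the start itself in 82.0% of cases, against 42.9% of control peaks. Over all genes the shares were 71.7% in KO lists and 28.8% in control lists. With calls taken at annotated starts alone, 28 of 43 genes (65.1%) had H3K4me3 in both KO lists, against 25.7% of 17492 genes, and 17 (39.5%) were KO-only, against 14.3%.

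**Figure D3:**
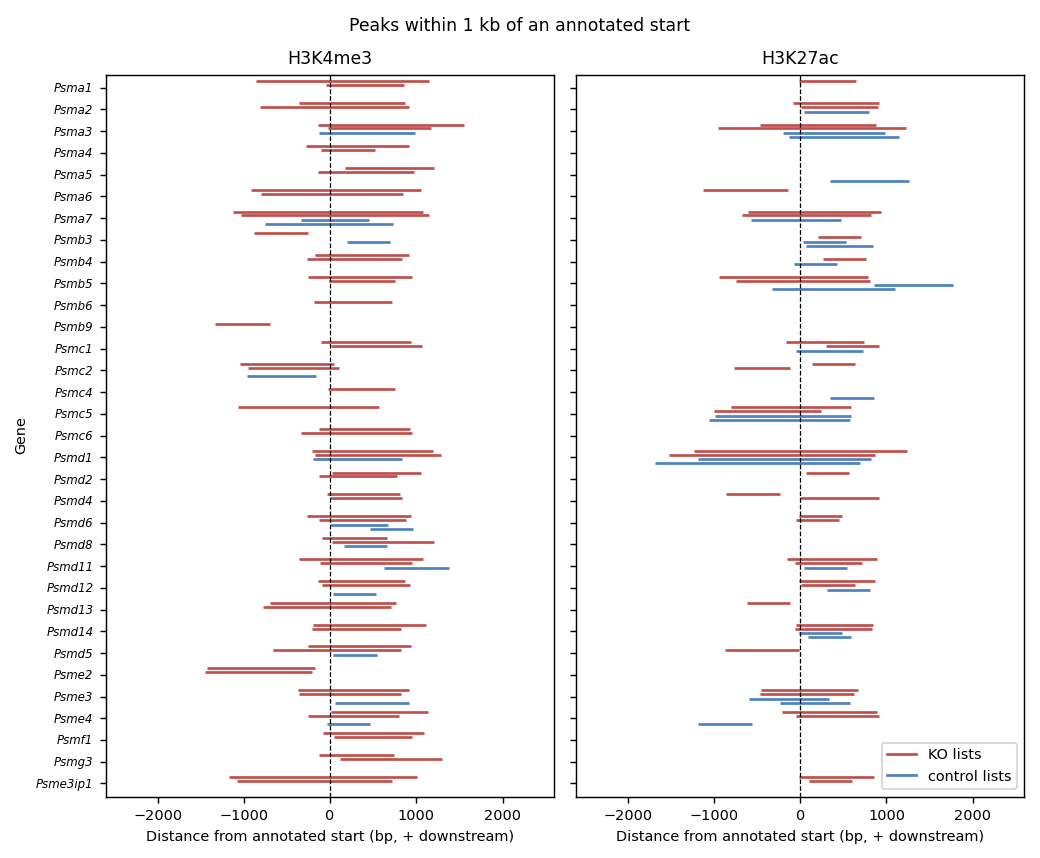
Extent of each H3K4me3 peak (left) and H3K27ac peak (right) within 1 kb of an annotated start (x axis, bp from the start, positive downstream) for the genes with such an H3K4me3 peak (rows). Red lines are KO lists and blue lines control lists. The red H3K4me3 lines cross the dashed start line in 82.0% of cases and extend mostly downstream. Some, such as those of Psme2, lie wholly upstream.

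For H3K27ac, KO lists 1 and 2 called 25 and 25 of the 51 genes, against 18 and 14 in control lists 1 and 2. The means were 25 ± 0 genes in KO cells and 16 ± 2.83 genes in control cells (SD, n = 2 each). The shares were 49.0% and 49.0% in KO cells, against 35.3% and 27.5% in control cells, and over all genes 22.1% and 22.0% in KO cells, against 17.4% and 14.5% in control cells. At least 1 list called 34 genes (66.7%), against 34.6% of all genes. Both KO lists called 20 (39.2%), against 14.4%, and both control lists called 8 (15.7%), against 9.08%. All 4 lists called 7 genes (13.7%), against 6.91% of all genes. KO-only were 5 genes (9.80%), against 2.88%, and control-only were 0, a class with 0.493% of all genes. Of the 20 genes called in both KO lists 25.0% were KO-only, against 19.9% of the other protein-coding genes called in both KO lists.

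The 7 genes with H3K27ac in all 4 lists were Psmb5, Psmb7, Psmc5, Psmd1, Psmd12, Psmd14 and Psme3. Psmd1, the scaffold of the 19S base, had 2469 and 2388 bp in KO cells, against 2001 and 2389 bp in control cells. These widths overlapped between the conditions. Psmb5 had 1737 and 1558 bp in KO cells, against 911 and 1423 bp in control cells. The 911 bp peak of control list 1 lay inside the gene and overlapped neither KO peak, and the peak of that list at the start was 752 bp wide. Psmd14 had 892 and 888 bp in KO cells, against 501 and 501 bp in control cells. Psme3, a nuclear activator, had 1124 and 1094 bp in KO cells, against 930 and 806 bp in control cells. Psmd12 had 884 and 629 bp in KO cells, against 501 and 501 bp in control cells, the peak of control list 2 lying at the end of the gene and not at its start. In Psmb5, Psmd14, Psme3 and Psmd12 both KO widths exceeded both control widths, which makes 4 of 7 (57.1%), against 36.0% of all genes called in all 4 lists. Psmc5 lay the other way, with 1395 and 1250 bp in KO cells, against 1579 and 1645 bp in control cells. Psmb7 had 1172 and 501 bp in KO cells, against 501 and 501 bp in control cells, control list 1 having peaks at both ends of the gene and the other 3 lists at 1 end. The median log2 ratio of KO over control width was 0.50 over these 7 genes, with 6 wider in KO cells by their means, against 0.27 over 1513 genes. The exact two-sided permutation p was 0.667 for Psmd1, 1 for Psmb7 and 0.333 for the other 5, and 0.407 was the smallest value after Benjamini-Hochberg adjustment over the 11 genes and marks tested.

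KO-only for H3K27ac were Psma3, Psmb2, Psmd4, Psmd6 and Psme3ip1. Psmd4 had 628 and 918 bp in KO cells and Psmd6 had 501 and 501 bp, with no peak in control cells for either. The Psmd4 peaks did not overlap, that of KO list 1 lying upstream of the start and that of KO list 2 across it. Psmb2 had 775 and 501 bp in KO cells and Psme3ip1 had 875 and 501 bp, again with none in control cells. Psma3 had 997 and 501 bp in KO cells at a span end, in peaks that did not overlap. At its annotated start, however, all 4 lists called it, with 1350 and 2174 bp in KO cells, against 1190 and 1282 bp in control cells. Without KO list 1 the KO-only genes numbered 8, against 7.25% of all genes, and without control list 1 they numbered 11, against 5.71%. Without control list 2 the genes called in all remaining lists numbered 13, against 9.74%. Of the 34 genes with an H3K27ac call in any list, 8 share a calling peak with another gene. Among them are Psme3ip1 with Rspry1 and Psmc5 with Ftsj3, so there the peak cannot be assigned to the named gene alone.

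Acetylation at the H3K4me3-marked genes can be read side by side. Of the 32 genes with H3K4me3 in both KO lists, 18 (56.2%) had H3K27ac in both KO lists, against 45.1% of all such genes, and 6 (18.8%) had it in both control lists, against 28.1%. Of the 18 genes with KO-only H3K4me3, 13 (72.2%) had H3K27ac in at least 1 KO list, against 67.7% of all such genes. In at least 1 control list 9 had it, against 41.3% of all such genes. Psmb5 and Psmd14 are examples, with H3K27ac in both control lists and H3K4me3 in neither. Among the 9, the control peak of Psmd2 lay at the far end of the gene from its H3K4me3. The control peak calling Psmd3 overlapped neither of its H3K4me3 peaks, and nor did its only KO call for H3K27ac, in KO list 1. Neither mark was called at a span end in any list at 10 genes (19.6%), against 53.6% of all genes. They were Psma6, Psma8, Psmb8, Psmb10, Psmb11, Psmd9, Psmd10, Psme1, Psme2b and Psmf1, of which Psma6 and Psmf1 had the H3K4me3 peaks at annotated starts given above. Psma6 also had an H3K27ac peak of 986 bp at an annotated start in KO list 1 and none in the other lists. Where both marks were called at 1 gene in 1 list, the peaks overlapped at 22 of 25 and 20 of 21 genes in KO lists 1 and 2, against 5 of 7 and 2 of 4 in control lists 1 and 2. Over all genes with both marks they overlapped at 89.9% and 90.8% in KO lists, against 88.9% and 88.3% in control lists. The H3K4me3 peak was the wider one at 20 of 25 and 17 of 21 proteasome genes in KO lists 1 and 2, against 1 of 7 and 1 of 4 in control lists 1 and 2. The same held at 65.6% and 61.6% of all genes with both marks in KO lists, against 17.4% and 20.9% in control lists.

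H3K27me3 was rare at proteasome genes. KO lists 1 and 2 called 1 and 3 of the 51 genes, against 2 and 3 in control lists 1 and 2. Over all genes the shares were 12.7% and 13.1% in KO cells, against 7.32% and 8.25% in control cells. At least 1 list called 3 genes (5.88%), against 20.3% of all genes, and the other 48 had no H3K27me3 at an end in any list. Both KO lists called 1 (1.96%), against 7.84%, and both control lists called 2 (3.92%), against 3.62%. All 4 lists called 1 gene, against 2.18% of all genes. No gene was KO-only, against 2.43% of all genes, and none was control-only, against 0.315%. H3K4me3 and H3K27me3 were both called in both KO lists at 0 proteasome genes and at 0.676% of all genes. With a share so low, 0 of 51 genes does not set the proteasome genes apart. The peaks could lie at different ends of a gene, so the bivalent state, with both marks at 1 place, was not counted.

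The 3 genes with H3K27me3 were Psmb8, Psmb9 and Psmb11, all alternative catalytic beta subunits. Psmb10, the remaining immune beta gene, had no H3K27me3 at its ends in any list. Psmb8 (chr17:34198195-34201454, plus strand) had 2076 and 1775 bp in KO cells, against 501 and 982 bp in control cells, a log2 ratio of 1.38. Its KO widths lay above its control widths, and the exact two-sided permutation p was 0.333. The peak of control list 1 did not overlap that of KO list 2, so these widths are not all of the same site. Only the peak of KO list 2 covered the start of Psmb8. Psmb9 (chr17:34182030-34187330, minus strand) had no peak in KO list 1 and 1451 bp in KO list 2, against 501 and 713 bp in control cells. The widest KO peak lay upstream of Psmb9, inside Tap1, and the control peaks lay inside Psmb9, so these widths are of different sites. Psmb11 (chr14:54625310-54629556, plus strand) had 767 bp in KO list 2, against 501 bp in control list 2, and no peak in the other lists. The widest KO peak lay upstream of its start and the control peak inside the gene near its far end, where KO list 2 had a separate peak that did not overlap it. Tap1 lies between Psmb9 and Psmb8, and the peaks that call Psmb8 also touch the end window of Tap1. Tap2, on the far side of Psmb8, had H3K27me3 of 849 and 501 bp in KO cells and none in control cells. The mark at this locus was thus not confined to the proteasome genes. In a window of 500 bp Psmb8 was called in both KO lists and neither control list. At this locus no list had an H3K27ac peak, and H3K4me3 was listed once, in KO list 2. Psmb5 and Psmb11 are neighbours on chromosome 14 and had no call of the same mark in common.

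**Figure D4:**
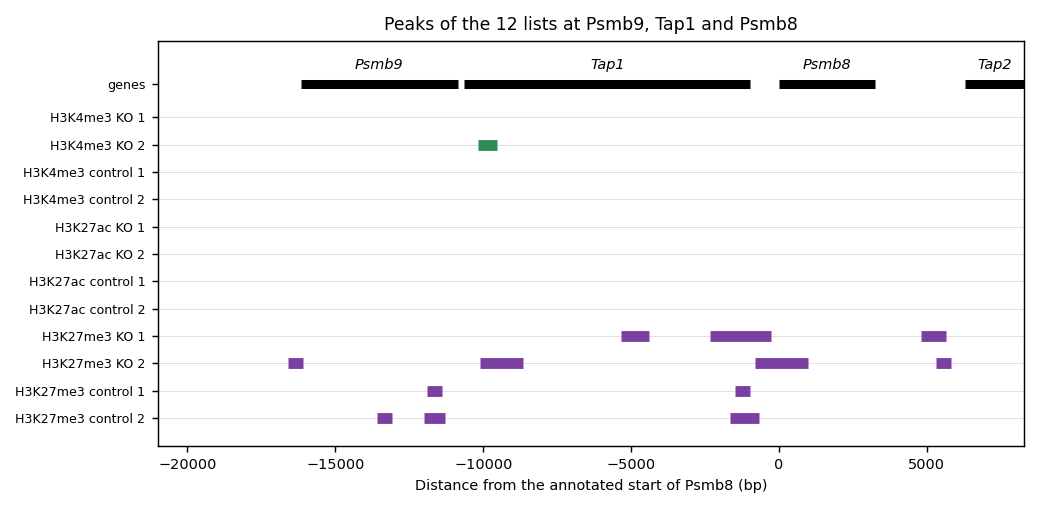
Peaks of the 12 lists (rows, KO before control for each mark) around Psmb9, Tap1 and Psmb8 (x axis, bp from the annotated start of Psmb8). Black bars are gene spans, green bars H3K4me3 peaks and purple bars H3K27me3 peaks. H3K27me3 peaks lie around the facing ends of Tap1 and Psmb8 in all 4 lists, at 2076 and 1775 bp in KO cells and 501 and 982 bp in control cells, and the H3K27ac rows are empty.

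Sequence composition was set beside the H3K4me3 calls, as a description without a test. CpG was counted in windows from 250 bases before to 50 after an annotated start, while calls were taken within 1000 bp of one. The 28 genes with such H3K4me3 calls in both KO lists had a median CpG ratio, observed over expected, of 0.79. The other 15 had 0.60. The median over all 17492 genes was 0.61. For a gene with several starts, the one with most CpG was taken. The lowest ratios were 0.09 at Psme2b, 0.17 at Psmb11 and 0.19 at Psmb10. A high ratio did not always go with the mark, since Psmc4 had 1.12 and was called in KO list 2 alone. Psme2 had 0.46 and was called in both KO lists, but its peaks lay upstream of the window measured. It is therefore no example of the mark on a window of low ratio.

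**Figure D5:**
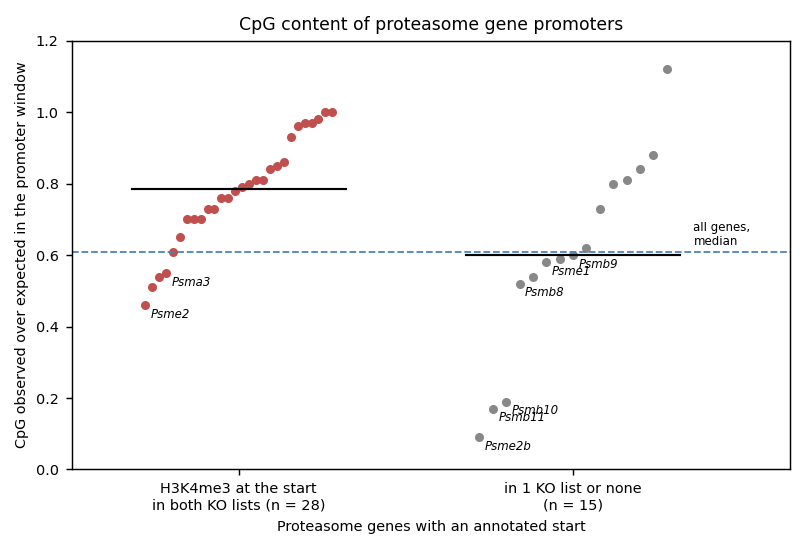
CpG observed over expected (y axis) in the promoter window of each of the 43 genes with an annotated start. At left are the 28 with H3K4me3 within 1000 bp of an annotated start in both KO lists, and at right the other 15. Solid lines are group medians, 0.79 and 0.60, and the dashed line is the median over all genes, 0.61.

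Motif letters were counted on both strands of such windows at every annotated start of a gene, and matches of different motifs could overlap. A gene with several starts thus had more sequence searched. The ETS core CGGAAG was present at 24 of 43 proteasome genes (55.8%), against 23.5% of all genes with a promoter. The antioxidant response element core TGACNNNGC was present at 6, against 14.8% of all genes, and these were Psmb5, Psmb6, Psmc6, Psmd9, Psmd12 and Psme4. CCAAT was present at 16 (37.2%), against 42.3%. The YY1 core AAGATGGC was present at 3 (6.98%), against 3.57%, and the nuclear respiratory factor letters GCGCATGCG at 2 (4.65%), against 2.61%. A match is a stretch of letters and not a measured binding site.

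Genes that work with the proteasome but fall outside its symbols were counted in the same way. Of 16 parts and partners, 14 had H3K4me3 in both KO lists and 2 in both control lists, 8 were KO-only, and 0 had H3K27me3 in any list. Pomp, which matures the 20S core, had H3K4me3 of 1565 and 1253 bp in KO cells and none in control cells. Akirin2, which brings proteasomes into the nucleus, had 1840 and 1253 bp in KO cells and none in control cells. The ubiquitin receptor gene Adrm1 had 668 and 965 bp in KO cells and none in control cells, while its H3K27ac was called in all 4 lists. Of 9 genes that control proteasome transcription, 5 had H3K4me3 in both KO lists and 1, Nfe2l2, in all 4. Nfe2l1, which encodes NRF1, had 1529 and 1366 bp in KO cells, against no peak in control list 1 and 501 bp in control list 2. Of 6 ubiquitin genes, 4 had H3K4me3 in both KO lists and 4 had H3K27ac in all 4 lists. The polyubiquitin gene Ubb had H3K4me3 of 1995 and 1340 bp in KO cells and none in control cells, with H3K27ac of 2388 and 2879 bp in KO cells, against 2262 and 2420 bp in control cells.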

How the data were processed

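Peak lists of 12 libraries were used, 2 KO and 2 control lists for each of 3 marks, grouped by what their titles say of mark, genotype and replicate. Not analysed here were the 4 input libraries and the Mettl3 samples that the series design names. Chromatin was precipitated with a histone kit, and foreign chromatin with its own antibody was added as a spike-in, per the labels' protocols. CASAVA, Trimmomatic 0.38, Bowtie2 2.4.1, SAMtools and HOMER with build mm10 are named in the submitters' processing notes. For the peak caller, its threshold and its handling of inputs and spike-in, the sources used here give no statement. The deposited lists were made per library. The deposited score column holds the constant 1 and was not used, so the positions deposited by the authors are the only measurement. They hold 117176 peaks, of which 10 lie on unplaced contigs, and the shortest peak is 501 bp.

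Gene spans came from RefSeq GRCm38.p6 and starts and strands from its promoter table, which held 43 of the 51 genes. Genes were called within 1000 bp of a span end with at least 1 bp of overlap. Widths were compared by exact permutation over the 6 assignments of 2 against 2 lists, with Benjamini-Hochberg adjustment. Counts have no test. The calling was tested on simulated data. Widths are named, per mark, for up to 8 genes called in all 4 lists, ranked by mean KO width, and up to 8 KO-only genes, ranked by the narrower KO peak, for genes with H3K27me3 and for inducible or tissue-specific subunits. Other genes given widths were chosen after their values were seen. The genes and lists were chosen with earlier results of these data known. Alternatives were other windows, overlaps and list lengths, annotated starts, genes with windows of their own, and each list left out. Python 3.11, pandas 2.3.3 and scipy 1.17.1 were used.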

Additional observations from a re-analysis of the deposited data

How the results depend on the processing

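No mark's median width ratio changed sign under the alternatives that gave a value (single genes were not rerun), and no proteasome gene was control-only with all lists kept. For H3K4me3 the KO-only count of 18 genes was 5 with lists cut to equal length, and the count in all 4 lists, 3, was 1 there and 1 in the wider 50% of each list. With 1 list left out, these counts spanned 20 to 25 and 3 to 10, and the median log2 width ratio spanned 0.946 to 1.04. For H3K27ac the KO-only count of 5 was 2 in the wider 50% of each list (3.92%, against 1.83% of all genes), and the count in all 4 lists, 7, was 4 there and 4 over the 24 genes whose windows overlap no other gene's. With 1 list left out, they spanned 7 to 11 and 7 to 13, and the ratio 0.225 to 0.595. For H3K27me3 the KO-only count of 0 was 1 in a window of 500 bp (1.96%, against 1.79% of all genes), and the count in all 4 lists, 1, was 0 there, 0 with 250 bp of overlap, 0 in the wider 50% and 0 over genes with windows of their own, so these settings gave no ratio. With 1 list left out, that count spanned 1 to 2, the KO-only count stayed at 0 and the ratio spanned 0.971 to 1.942, and 2 was reached without KO list 1. Fewer lists to pass raise these counts by construction, and the cause of the other shifts was not tested. Counts with no share over all genes beside them, here or above, do not set the proteasome genes apart from other genes.

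With the replicate number as a replicate block, the ratios were 1.023 for H3K4me3, 0.531 for H3K27ac and 1.452 for H3K27me3, and the smallest exact permutation p was 0.5. The labels tie the numbers to no shared batch, and same-numbered KO and control lists did not deviate together (correlation over genes -0.000, -0.009 and -0.011). Unknown depth, unequal list length and the lack of heights limit what an absent peak can show.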
